A study of Homo sapiens with 8 samples.

Results

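Hemidesmosomes are the junctions by which the basal cells of a stratified epithelium hold on to the basement membrane, and laminin-332 is the basement membrane protein that they grip. The genes described here are 8 in number, out of 15852 listed in the count table: the transmembrane components COL17A1, ITGA6, ITGB4 and CD151, the plakin linkers DST and PLEC, and the laminin-332 chains LAMA3 and LAMB3. They were chosen by symbol, as table rows whose identifier equals a listed name, and all 8 were found and passed the filter on low counts.

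The libraries came from KYSE150, an established line of human esophageal squamous cell carcinoma, in a study of the inclusion of BOLA3 exon 3. In 4 libraries, labelled ShBOLA3-L, the L isoform of BOLA3 was knocked down by short hairpin RNA, and 4 libraries were labelled as controls; all 8 were labelled as having no treatment. BOLA3 is a mitochondrial protein that helps hand iron-sulfur clusters to other proteins. What construct the controls carried, how many hairpins or clones were used, and whether replicate libraries came from separate cultures is not said in the labels. The p-values therefore measure only the spread between these libraries, which may be technical.

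In the hemidesmosome of the basal cell, the α6β4 integrin, encoded by ITGA6 and ITGB4, binds laminin-332 outside the cell. Collagen XVII crosses the membrane beside it, and the tetraspanin CD151 joins the complex within the membrane. Inside the cell, plectin and the epithelial form of dystonin tie the receptors to the keratin filaments. Stratified squamous epithelia such as skin and esophagus carry these junctions along their basal layer, and inherited loss of their components is known from blistering skin disease.

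Library totals ranged from 31178036 to 35147860 counts, and the 8 genes together took 0.275% to 0.368% of them. At these totals 3 counts, taken as the smallest count that can be told from 0, correspond to 0.0854 to 0.0962 CPM, the count scaled to a library total of 1e+06. All 8 genes stood far above that floor, with 3941 counts (LAMB3) to 39486 counts (PLEC) per library. BOLA3, the targeted gene, stood at 6.06, 6.64, 6.33 and 7.29 CPM in knockdown replicates 1 to 4, against 21.6, 19.1, 20.5 and 21.8 CPM in control replicates 1 to 4. The knockdown mean was 31.7% of the control mean (exact two-sided permutation test p = 0.0286, the smallest that the 70 assignments of 4 against 4 libraries allow). The counts are per gene, so the L isoform itself was not measured.

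1 library stood apart. The second principal component of log2 CPM (14.4% of the variance) put knockdown replicate 1 at 20.1 and the other knockdown libraries at -10.1 to -4.81, and the gap followed the GC content of the transcripts, as described below for the genes it touches. Among squamous epithelial markers, KRT5 and TP63 were abundant and SOX2 stayed under 1 CPM in every library. The summed squamous markers came to 2909 to 3154 CPM in knockdown libraries and 4396 to 4414 CPM in controls. Most of that sum was KRT5, at 1773 to 2033 CPM in knockdown libraries and 3099 to 3117 CPM in controls. The other squamous markers together reached at most 1136 CPM in knockdown libraries and 1309 CPM in controls. Of the 7 tested, 6 fell (85.7%, against 15.6% of all tested genes), among them PKP1 (-0.30) and DSG3 (-0.31). EPCAM rose (log2 change 0.21), a share of 14.3%, near the 15.0% of all tested genes. Of 7 fibroblast markers in the table, 6 were under 1 CPM everywhere, and the sum was 4.59 to 7.32 CPM in knockdown libraries and 9.86 to 14.7 CPM in controls, most of it COL1A1 (log2 change -1.28). LUM, at 0.232 ± 0.189 CPM after knockdown and 0.669 ± 0.228 CPM in controls (SD, n = 4 each), fell by 1.53 and lost its call without knockdown replicate 2 or control replicate 2 or 3 (edgeR adjusted p from 0.0579 to 0.0657). Of 6 leukocyte markers, 5 including PTPRC were under 1 CPM everywhere, and the sum, nearly all CD68, of whose sequence 90.4% occurs in other genes' transcripts, was 74.1 to 80.4 CPM in knockdown libraries and 77.0 to 84.1 CPM in controls. Of 5 endothelial markers, 4 were under 1 CPM everywhere, and the sum was 1.96 to 2.58 CPM in knockdown libraries and 0.994 to 1.90 CPM in controls. CDH5 rose by 0.79 on the log2 scale. What part these markers have in the changes below was not tested. These are bulk libraries, in which fewer cells of a type and less RNA per cell cannot be told apart.

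After BOLA3-L knockdown, 6 of the 8 hemidesmosome and laminin-332 genes fell and 0 rose by edgeR's quasi-likelihood test (Benjamini-Hochberg adjusted p under 0.05 over all 11841 tested genes). Among all tested genes 15.6% fell and 15.0% rose, so 30.7% changed in either direction. LAMB3 fell the most, to 64.9% of its control mean, followed by DST (74.0%), COL17A1 (75.4%), ITGA6 (75.9%), ITGB4 (83.4%) and LAMA3 (84.8%). PLEC stood at 85.1% of its control mean and did not pass the test with all libraries, and CD151 stood at 103% and did not pass either. In 7 of the 8 genes every knockdown library lay below every control, a pattern found in 15.6% of all tested genes, and in CD151 alone the groups overlapped. Every knockdown library lay above every control in 0 of the 8 genes and in 14.6% of all tested genes. The median log2 change was -0.33 over the 8 genes and 0.00 over all tested genes, where the median size of a change was 0.11 overall and 0.24 among genes that changed. None of the 8 changed as much as 2-fold, and 218 of the genes that fell did so by at least as much as LAMB3.

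**Figure D1:**
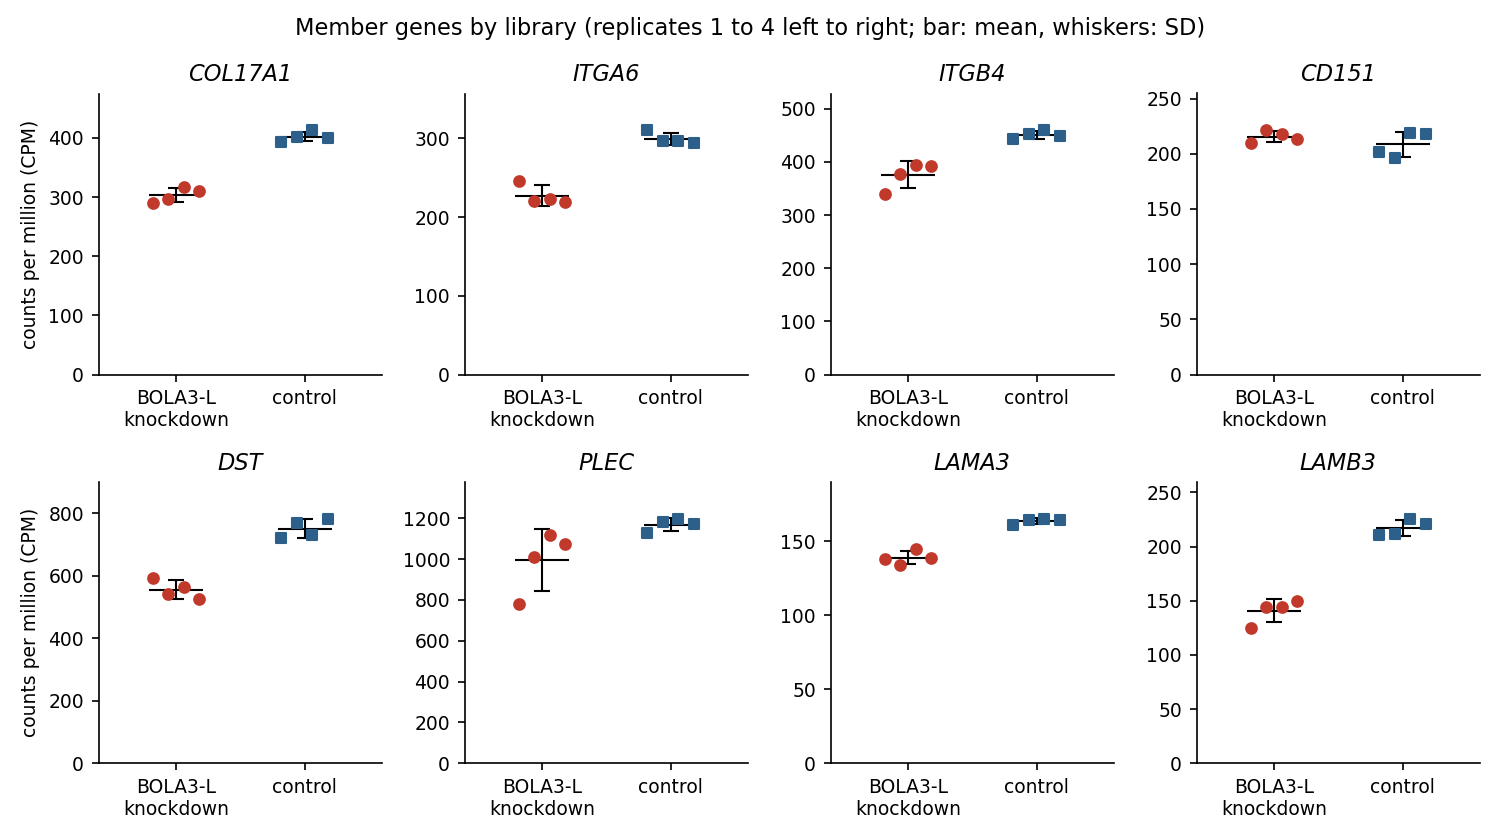
CPM of the 8 genes in every library on axes that start at 0, BOLA3-L knockdown left of control; points are libraries, bars are means and error bars are SD (n = 4 each). In all panels but that of CD151 the 4 knockdown points lie below the 4 control points, and 1 knockdown point of PLEC, at 779 CPM, lies far below the other 3.

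The transmembrane components were read first. COL17A1, the collagen XVII chain that spans the membrane of the hemidesmosome (Entrez 1308, chromosome 10, 104031286 to 104085880 on the minus strand of GRCh38.p14), stood at 289, 297, 316 and 309.8 CPM in knockdown replicates 1 to 4, against 394, 402, 413 and 399.8 CPM in control replicates 1 to 4. All knockdown libraries were below all controls, and the gap between the nearest libraries exceeded the range within either group. The means were 303 ± 12.2 CPM after knockdown and 402 ± 8.06 CPM in controls (SD, n = 4 each), a log2 change of -0.41 (SE 0.0356, edgeR adjusted p = 1.04e-07).

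ITGA6, the α6 chain of the laminin receptor (Entrez 3655, chromosome 2, 172427336 to 172506459, plus strand), stood at 246, 220.0, 224 and 219 CPM in the knockdown libraries, against 310.4, 296, 296 and 295 CPM in the controls. The groups did not overlap, and in both of them replicate 1 was the highest library. The means were 227 ± 12.9 CPM after knockdown and 299 ± 7.40 CPM in controls (SD, n = 4 each), a log2 change of -0.40 (SE 0.0403, edgeR adjusted p = 6.54e-07). Other annotated genes, among them ITGA6-AS1, overlap 5.37% of its exonic sequence, and whether the counting used strand is not given in the sources used here.

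ITGB4, the β4 chain that pairs with α6 and carries the long cytoplasmic tail to which plectin binds (Entrez 3691, chromosome 17, 75721459 to 75757818, plus strand), stood at 339, 377, 395 and 392.3 CPM in the knockdown libraries, against 442, 453, 459.5 and 449 CPM in the controls. All knockdown libraries were below all controls, and replicate 1 was the lowest of them. The means were 376 ± 25.8 CPM after knockdown and 451 ± 7.29 CPM in controls (SD, n = 4 each), a log2 change of -0.26 (SE 0.0420, edgeR adjusted p = 0.000117).

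CD151, the tetraspanin that binds laminin-binding integrins (Entrez 977, chromosome 11, 832952 to 838831, plus strand), stood at 210.0, 221, 218 and 213 CPM in the knockdown libraries, against 201, 196, 219 and 218 CPM in the controls. The groups overlapped, with the knockdown libraries inside or just above the control range. The means were 216 ± 5.05 CPM after knockdown and 208 ± 11.4 CPM in controls (SD, n = 4 each), a log2 change of 0.05 with a 95% interval of -0.04 to 0.13 (edgeR adjusted p = 0.399). POLR2L and AP006621.1 overlap 7.57% of its exonic sequence.

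The plakins are the large linkers on the cytoplasmic side. DST, whose epithelial form BPAG1e joins the receptors to keratin (Entrez 667, chromosome 6, 56457996 to 56954830, minus strand), stood at 593, 542, 565 and 525 CPM in the knockdown libraries, against 723, 769, 730.0 and 783 CPM in the controls. Every knockdown library was below every control. The means were 556 ± 29.5 CPM after knockdown and 751 ± 29.5 CPM in controls (SD, n = 4 each), a log2 change of -0.43 (SE 0.0397, edgeR adjusted p = 1.82e-07). DST also makes neuronal and muscle forms, and its 18 annotated coding transcripts of 490 to 22431 bases are summed in 1 count, so the epithelial form was not measured by itself.

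PLEC, plectin, which binds the β4 tail and keratin filaments (Entrez 5339, chromosome 8, 143915153 to 143976745, minus strand), stood at 779, 1012, 1117 and 1074 CPM in the knockdown libraries, against 1126, 1182, 1198 and 1171 CPM in the controls. The groups did not overlap, but knockdown replicate 1 was far below the other 3 knockdown libraries, and the highest of these came close to the lowest control. The means were 996 ± 151 CPM after knockdown and 1169 ± 30.8 CPM in controls (SD, n = 4 each), a log2 change of -0.23 with a 95% interval of -0.48 to 0.01 that did not pass the test (edgeR adjusted p = 0.143). Without knockdown replicate 1 the knockdown mean was 1068 ± 52.6 CPM (SD, n = 3), or 91.3% of control, and the smaller log2 change of -0.13 passed the test (edgeR adjusted p = 0.000129). With all 8 libraries and offsets corrected for GC content, the log2 change was -0.26 (edgeR adjusted p = 2.88e-08).

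Of the chains of laminin-332, LAMA3 encodes α3 and LAMB3 encodes β3. LAMB3 (Entrez 3914, chromosome 1, 209614870 to 209652425, minus strand) stood at 125, 144, 145 and 149.9 CPM in the knockdown libraries, against 210.5, 212, 226 and 220.5 CPM in the controls. The highest knockdown library was well below the lowest control. The means were 141 ± 10.95 CPM after knockdown and 217 ± 7.22 CPM in controls (SD, n = 4 each), a log2 change of -0.62 (SE 0.0487, edgeR adjusted p = 2.62e-08), the largest of the 8 genes.

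LAMA3 (Entrez 3909, chromosome 18, 23689453 to 23955066, plus strand) stood at 138, 134, 145 and 139 CPM in the knockdown libraries, against 161, 165, 165 and 164 CPM in the controls. The groups did not overlap, and the controls differed little among themselves. The means were 139 ± 4.52 CPM after knockdown and 164 ± 2.03 CPM in controls (SD, n = 4 each), a log2 change of -0.24 (SE 0.0370, edgeR adjusted p = 8.91e-05), the smallest of the 6 genes that fell.

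RefSeq start windows on GRCh38.p14, running from 250 bases before to 50 bases after an annotated start, were at hand for 5 of the 8 genes (10 windows). Shown are the LAMA3 window, which lies at a start inside the gene, 2 of the LAMB3 windows and the COL17A1 window. LAMA3 and LAMB3 had the smallest and the largest of the falls that passed the test, and COL17A1 lay between them. A further reason was that JUN, a subunit of the AP-1 transcription factor, fell too (below). FOSL1, another AP-1 subunit, did not pass the test (below). Whether AP-1 has a part in the falls was not tested. Capitals mark matches to the AP-1 motif TGANTCA, which was searched on both strands and is its own reverse complement but for the middle base.
LAMA3, chr18:23872770-23873069, plus strand: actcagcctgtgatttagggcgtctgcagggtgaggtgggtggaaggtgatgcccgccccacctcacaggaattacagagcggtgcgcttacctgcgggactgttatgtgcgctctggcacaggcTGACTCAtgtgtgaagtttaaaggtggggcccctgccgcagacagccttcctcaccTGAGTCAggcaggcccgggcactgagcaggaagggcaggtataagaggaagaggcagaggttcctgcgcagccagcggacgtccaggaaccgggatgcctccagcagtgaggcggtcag
LAMB3, chr1:209651325-209651624, minus strand: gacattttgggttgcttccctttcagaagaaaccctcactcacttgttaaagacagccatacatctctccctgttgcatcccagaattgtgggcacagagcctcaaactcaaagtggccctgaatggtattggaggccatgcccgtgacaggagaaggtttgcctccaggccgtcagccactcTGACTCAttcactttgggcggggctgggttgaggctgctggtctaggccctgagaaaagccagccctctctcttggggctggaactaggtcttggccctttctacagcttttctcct
LAMB3, chr1:209652376-209652675, minus strand: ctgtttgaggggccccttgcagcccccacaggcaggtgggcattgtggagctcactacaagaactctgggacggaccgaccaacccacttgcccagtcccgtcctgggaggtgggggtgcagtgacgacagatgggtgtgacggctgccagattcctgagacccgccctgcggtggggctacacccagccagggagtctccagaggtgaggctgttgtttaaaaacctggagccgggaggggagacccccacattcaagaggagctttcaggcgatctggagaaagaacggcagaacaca
COL17A1, chr10:104085831-104086130, minus strand: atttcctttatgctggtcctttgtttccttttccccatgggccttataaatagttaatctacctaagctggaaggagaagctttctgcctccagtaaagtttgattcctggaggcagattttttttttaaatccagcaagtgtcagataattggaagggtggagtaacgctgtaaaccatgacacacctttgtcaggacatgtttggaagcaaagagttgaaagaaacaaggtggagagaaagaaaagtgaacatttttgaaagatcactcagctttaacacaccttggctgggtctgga

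The LAMA3 window holds 2 AP-1 matches, which begin 125 and 69 bases before the start. The first LAMB3 window shown, which also lies at a start inside its gene, holds 1 match, 67 bases before that start. The other LAMB3 windows and the COL17A1 window hold none. Over the 10 windows of these genes 3 hold an AP-1 match, 1 each for LAMA3, LAMB3 and DST, while 7.71% of all 35116 windows in the table do. The DST match begins 25 bases after its start, and no annotated coding transcript of DST begins within 100 bases of that start. A half-site of the p53 family, the family of TP63, was found in 1 of the 10 windows, that of COL17A1, 55 bases before the start, and in 6.63% of all windows. The letters GGAAGT, 1 form of the ETS site, were searched on both strands because the ETS factor EHF fell. They were found in 0 of the 10 windows and in 22.8% of all. Shorter or other forms of the ETS site were not searched, so this count does not cover them. The Sp1 box GGGCGG was found in 7 of the 10 windows, those of 4 of the 5 genes, and in 45.0% of all, and TATAAA in 2 of the 10 and in 11.5% of all, both strands searched. A pair of LAMB3 windows and a pair of ITGA6 windows overlap and each pair shares 1 Sp1 match, so the 7 windows do not stand for 7 separate matches. No AP-1 match shared a base with a match to the other motifs. A match is a run of letters and not a measured binding site, and no match says only that these letters are not in this window.

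**Figure D2:**
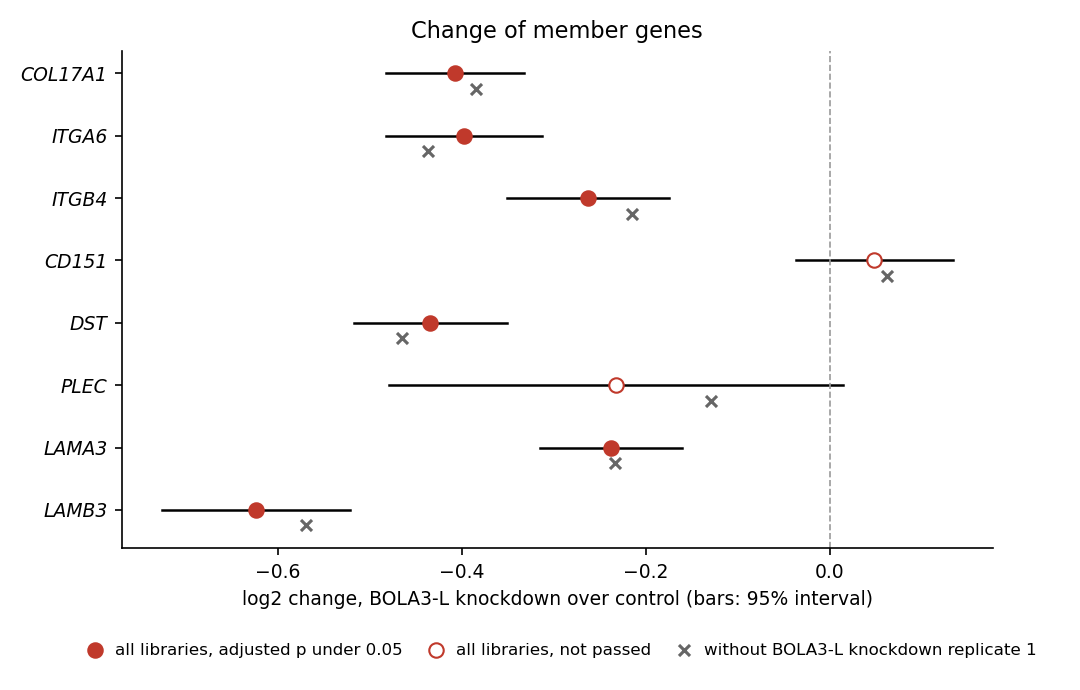
Log2 change of each of the 8 genes after BOLA3-L knockdown over control, with 95% intervals from the edgeR fit; filled points passed the adjusted test, and crosses give the log2 change without knockdown replicate 1. LAMB3 lies farthest left at -0.62, CD151 lies at 0.05, and the widest interval is that of PLEC, -0.48 to 0.01.

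Levels between genes were compared on FPKM, in which the authors divided each count by gene length. In knockdown libraries CD151 was highest (134 ± 2.82 FPKM), followed by PLEC (59.6 ± 8.92), ITGB4 (55.2 ± 3.66), COL17A1 (54.4 ± 2.13), ITGA6 (38.0 ± 2.29), LAMB3 (31.6 ± 2.36), DST (17.1 ± 0.966) and LAMA3 (12.3 ± 0.422 FPKM; SD, n = 4 each). In controls CD151 was again highest (128 ± 6.94 FPKM), then COL17A1 (71.1 ± 1.46), PLEC (69.1 ± 1.88), ITGB4 (65.2 ± 1.10), ITGA6 (49.3 ± 1.18), LAMB3 (48.01 ± 1.596), DST (22.8 ± 0.912) and LAMA3 (14.4 ± 0.190 FPKM; SD, n = 4 each). Among neighbours in these orders, PLEC with ITGB4 and ITGB4 with COL17A1 overlapped in the knockdown libraries, and COL17A1 with PLEC, PLEC with ITGB4 and ITGA6 with LAMB3 overlapped in the controls. COL17A1 and ITGB4, which are not neighbours in the control order, overlapped in the knockdown libraries and lay apart in the controls, where COL17A1 stood at 69.5 to 73.0 FPKM and ITGB4 at 63.9 to 66.5 FPKM. The gene lengths behind the values were 32769 bases for DST, 16800 for PLEC and 11324 for LAMA3, longer than any of their annotated coding transcripts, of which LAMA3 has 10 of 462 to 10661 bases. Lengths also exceeded the longest coding transcript in ITGB4 (6861 against 5919 bases), ITGA6 (6023 against 5618) and LAMB3 (4490 against 4305). The FPKM of a gene read mainly from a shorter form would be understated by such a length, which touches the low rank of DST and LAMA3.

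The balance between chains and partners was read as ratios of FPKM within a library, for 7 pairs. The log2 ratio of LAMA3 to LAMB3 was -1.19, -1.44, -1.33 and -1.45 in the knockdown libraries, against -1.72, -1.70, -1.78 and -1.76 in the controls. It was higher in every knockdown library than in any control: 0.392 LAMA3 per LAMB3 after knockdown and 0.299 in controls (difference in log2 ratio 0.39, and 0.33 without knockdown replicate 1). The level of a ratio rests on the gene lengths given above, and the difference between groups does not. Permuting the libraries exactly gave a two-sided p of 0.0286, as low as the design can reach, and 0.0667 after adjustment over the 7 ratios. Thus 0 of the 7 passed. At that floor a ratio can pass after adjustment only if most of the 7 reach the floor too, so this count says little about any single ratio.

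In 2 further ratios the groups did not overlap, each with the same p-value and adjusted p-value. COL17A1 stood at 0.987 per ITGB4 after knockdown and 1.09 in controls (difference in log2 ratio -0.14, and -0.17 without knockdown replicate 1). CD151 stood at 2.43 per ITGB4 after knockdown and 1.96 in controls (0.31, and 0.28 without replicate 1).

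The 2 chains of the α6β4 receptor had overlapping ratios. ITGA6 stood at 0.689 per ITGB4 after knockdown and 0.756 in controls (difference in log2 ratio -0.13, exact two-sided permutation p = 0.200, adjusted p = 0.267). Without knockdown replicate 1, whose ratio was the highest of its group, the difference was -0.22. DST stood at 0.289 per PLEC after knockdown and 0.329 in controls (-0.19, exact p = 0.200, and -0.33 without replicate 1). Against the chains of the other main laminin receptor, α3β1, ITGA6 stood at 0.573 per ITGA3 after knockdown and 0.595 in controls (-0.05, exact p = 0.629, and -0.14 without replicate 1). ITGB4 stood at 0.519 per ITGB1 after knockdown and 0.485 in controls (0.10, exact p = 0.229, and 0.16 without replicate 1). After adjustment these 4 exact p-values ranged from 0.267 to 0.629, and with 4 libraries a group they do not show that the ratios were alike.

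**Figure D3:**
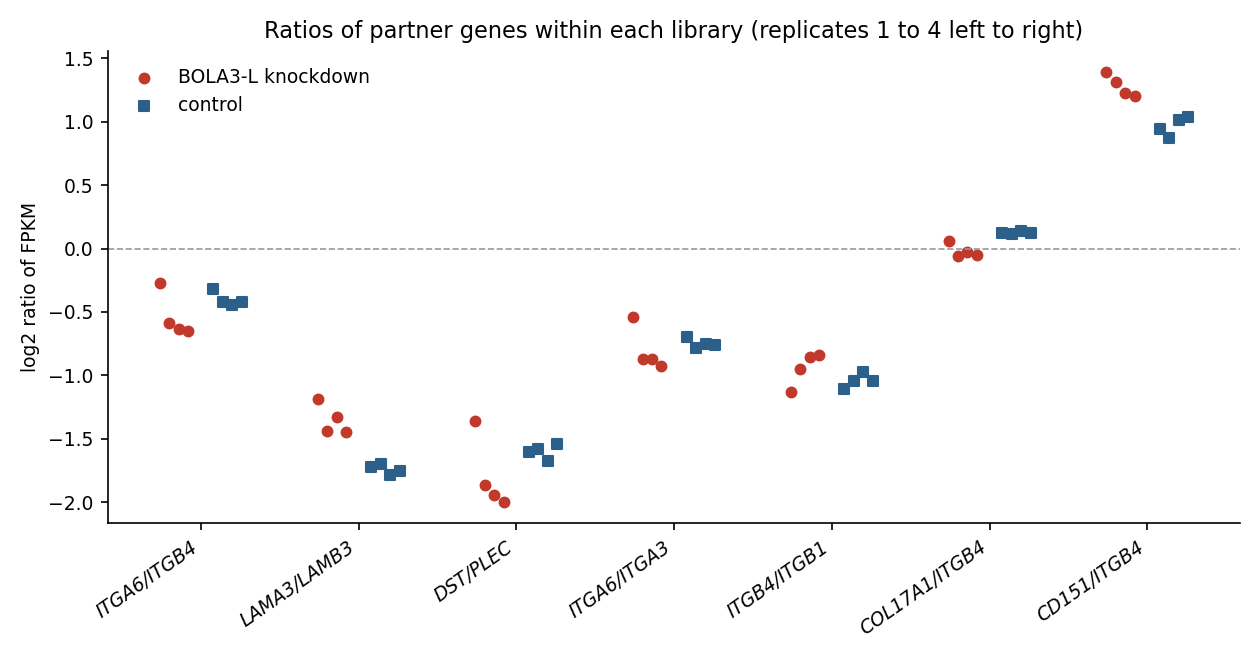
Log2 ratio of FPKM for 7 pairs of genes in each library, BOLA3-L knockdown left of control; each point is a library. The LAMA3 to LAMB3 ratio is higher in all 4 knockdown libraries, and in ITGA6 to ITGB4 1 knockdown point, at -0.27, stands above the other 3, which lie between -0.65 and -0.59.

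The difference of knockdown replicate 1 from the other knockdown libraries ran with transcript GC content. Across tested genes at or above 5 CPM, its log2 CPM minus the mean of replicates 2 to 4 had a median of 0.17 in the lowest of 10 bins of GC and -0.28 in the highest. Among the 8 genes the offset was 0.12 for DST (41.3% GC) and 0.16 for ITGA6 (42.9%), close to 0 for LAMA3 (-0.01, 50.7%), -0.09 for COL17A1 (55.9%), -0.23 for LAMB3 (58.9%), -0.20 for ITGB4 (63.7%) and -0.45 for PLEC (67.0%). CD151, at 63.1% GC, had an offset of only -0.05. The genes of more GC than LAMA3 were thus lower, and those of less GC higher, in that library than in the other knockdown libraries. Replicates 2 to 4 alone put all genes but CD151 lower than control, from -0.57 (LAMB3) to -0.13 (PLEC) as differences in mean log2 CPM. Across tested genes at or above 5 CPM, that difference was not free of GC content either. Its median was -0.04 in the lowest of 10 bins of GC and 0.07 in the highest.

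**Figure D4:**
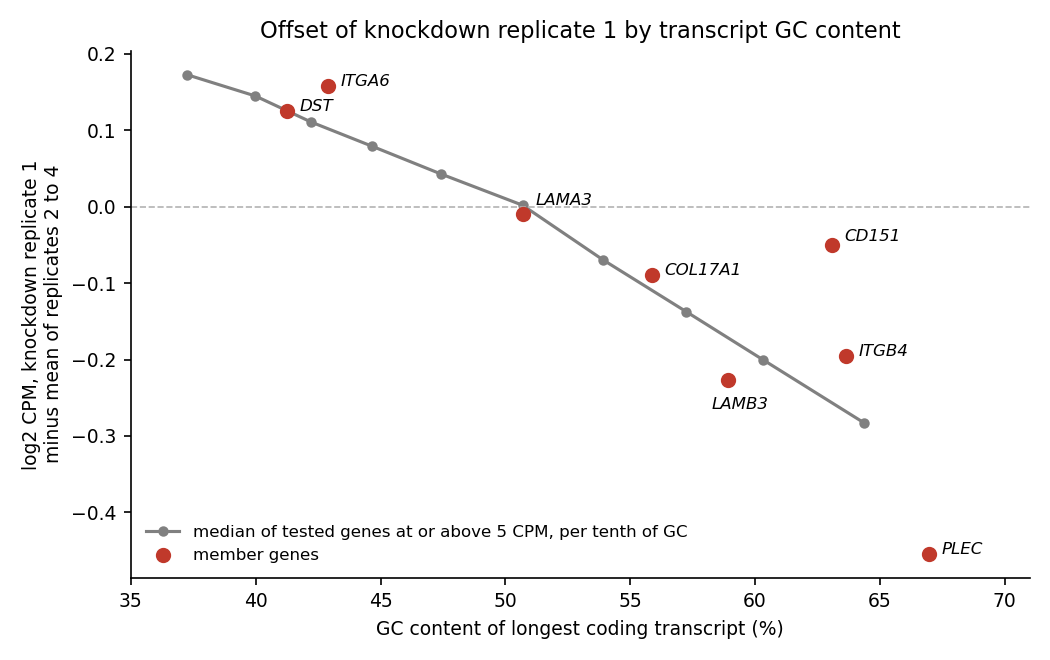
Offset of knockdown replicate 1 (log2 CPM minus the mean of knockdown replicates 2 to 4) against GC content of the longest coding transcript; the grey line joins medians of tested genes at or above 5 CPM by bin of GC and red points are the 8 genes. The line goes down from 0.17 to -0.28, and PLEC, at 67.0% GC, lies lowest at -0.45.

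Genes whose products process or anchor laminin-332 held 5 falls and 0 rises among 7 tested. The share that fell was 71.4%, where 15.6% of all tested genes fell and 15.0% rose, and the median log2 change of these 7 was -0.22. Those that fell were the proteases MMP2 (15.2 ± 1.89 CPM after knockdown and 27.9 ± 0.618 CPM in controls, log2 change -0.88), MMP14 (-0.40) and BMP1 (-0.22), which are known to cleave laminin-332 chains, COL7A1 (-0.26), the collagen of the anchoring fibrils below the hemidesmosome, and the plasminogen activator PLAU (-0.15). PLAU lost its call without knockdown replicate 3 or control replicate 2, 3 or 4 (edgeR adjusted p from 0.0606 to 0.107). The other 2, named after their values were seen, were THBS1 (2878 ± 82.6 CPM after knockdown and 2793 ± 85.1 CPM in controls) and TLL1 (0.836 ± 0.248 CPM after knockdown and 0.973 ± 0.250 CPM in controls), and neither passed.

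A list of receptors and linkers outside the hemidesmosome, not all of them laminin receptors, included 18 tested genes. Of these 6 fell (33.3%, against 15.6% of all tested genes) and 3 rose (16.7%, near the 15.0% of all tested genes), with a median log2 change of -0.07. ITGA3 and ITGB1, the chains of the α3β1 receptor, fell together (-0.34 and -0.36), ITGA3 to 325 ± 21.2 CPM, against 412 ± 4.19 CPM in controls (SD, n = 4 each). CD44, a hyaluronan receptor, fell by 0.28 on the log2 scale, and ITGB6, a chain of an epithelial receptor for fibronectin and latent TGF-beta, by 0.72, at 4.18 ± 0.323 CPM after knockdown and 6.89 ± 0.405 CPM in controls (SD, n = 4 each). ITGA2 and FERMT2, named after their values were seen, fell by 0.24 and 0.44. Sequence found in other genes' transcripts covers 14.8% of ITGB1 and 17.3% of ITGB6. SDC4, a heparan sulfate proteoglycan of focal adhesions, rose to 302 ± 4.80 CPM after knockdown, against 226 ± 7.26 CPM in controls (log2 change 0.42), DAG1, dystroglycan, rose by 0.37, and BCAM, a receptor for the laminin α5 chain named after its values were seen, by 0.29. Without knockdown replicate 1, 5 of these genes rose, in a setting in which rises over all tested genes numbered 2526, against 1777 with every library.

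Of the other basement membrane genes, 25 were listed, 24 were found in the table and 14 tested, of which 4 fell (28.6%, against 15.6% of all tested genes) and 2 rose (14.3%, near the 15.0% of all tested genes), with a median log2 change of -0.07. The β1, γ1 and β2 laminin chains LAMB1 (-0.28), LAMC1 (-0.21) and LAMB2 (-0.16) and the collagen IV chain COL4A5 (-0.22) fell. FBLN1, fibulin-1, rose by 0.40 (45.0 ± 1.81 CPM after knockdown and 34.1 ± 1.11 CPM in controls, SD, n = 4 each), and the collagen COL18A1 by 0.37. With GC-corrected offsets 7 of these genes fell, while falls over all tested genes numbered 2533 with these offsets and 1853 without them.

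Among other plakins and the filaments they bind, 8 of 11 tested genes fell (72.7%) and 1 rose (9.09%), beside 15.6% and 15.0% of all tested genes, and the median log2 change of the 11 was -0.28. The basal keratins to which plectin and BPAG1e attach, KRT14 and KRT5, fell by 1.14 and 0.69, KRT5 to 1936 ± 126 CPM, against 3132 ± 11.2 CPM in controls (SD, n = 4 each). KRT17 fell by 0.40, and MACF1, the plakin that links actin and microtubules, fell by 0.26. The falls were mostly of filament genes. Among the remaining plakins, named after their values were seen, DSP fell by 0.10, while EVPL (log2 change 0.08) and EPPK1 (0.01) did not pass. KRT6A fell by 1.55, to 3.25 ± 0.302 CPM, against 9.51 ± 2.37 CPM in controls, and VIM fell by 1.43, to 1.61 ± 0.330 CPM, against 4.36 ± 0.592 CPM in controls (SD, n = 4 each). Sequence found in other genes' transcripts covers 12.5% of KRT14 and 17.8% of KRT6A. PPL, periplakin, named after its values were seen, rose by 0.14 with overlapping groups and lost its call without any single library other than knockdown replicate 1 (edgeR adjusted p from 0.0544 to 0.0960). Without that replicate 2 of these genes rose, and rises over all tested genes numbered 2526.

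Of 17 listed tetraspanins, the family of CD151, 12 were tested, 1 fell and 2 rose. The share called, 25%, was near the 30.7% of all tested genes, and the median log2 change of these 12 was 0.02. CD63 fell by 0.10 on the log2 scale, TSPAN13 rose by 0.28 and TSPAN6 by 0.19. CD63 lost its call without any 1 library other than knockdown replicates 1 and 4 (edgeR adjusted p from 0.0591 to 0.0991). TSPAN6 lost its call without knockdown replicate 1 or 2 or control replicate 1, 2 or 4 (edgeR adjusted p from 0.0738 to 0.120), and its log2 change without knockdown replicate 1 was 0.12.

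Of 24 regulators and signalling partners of hemidesmosomes, 10 fell (41.7%, against 15.6% of all tested genes) and 3 rose (12.5%, against 15.0%), with a median log2 change of 0.00. EHF, an epithelial ETS factor, fell by 2.33 (5.68 ± 0.946 CPM after knockdown and 28.5 ± 0.671 CPM in controls, SD, n = 4 each). TP63, the transcription factor of basal squamous cells, fell by 0.49, at 220 ± 11.7 CPM after knockdown and 309 ± 5.33 CPM in controls (SD, n = 4 each). JUN fell by 0.48, KLF5, a transcription factor of basal epithelium, by 0.32, and SHC1, the adaptor that can bind the β4 tail, by 0.27. Other AP-1 and ETS genes of the list, named after their values were seen, did not all fall. JUND fell by 0.33, but FOSL1 did not pass (log2 change 0.06, 121 ± 6.35 CPM after knockdown and 116 ± 3.83 CPM in controls). The ETS factor ELF3 did not pass either (0.12, 105 ± 7.84 CPM after knockdown and 96.9 ± 3.46 CPM in controls). PRKCA, a kinase known to phosphorylate the β4 tail, rose by 0.33, and ERBB2, a receptor kinase that β4 can associate with, and PIK3CA, both named after their values were seen, rose by 0.28 and 0.21. PIK3CA lost its call without control replicate 1 (edgeR adjusted p = 0.0526), and without knockdown replicate 1, 5 of these genes rose. With GC-corrected offsets 8 rose, while rises over all tested genes numbered 2394 with these offsets and 1777 without them.

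**Figure D5:**
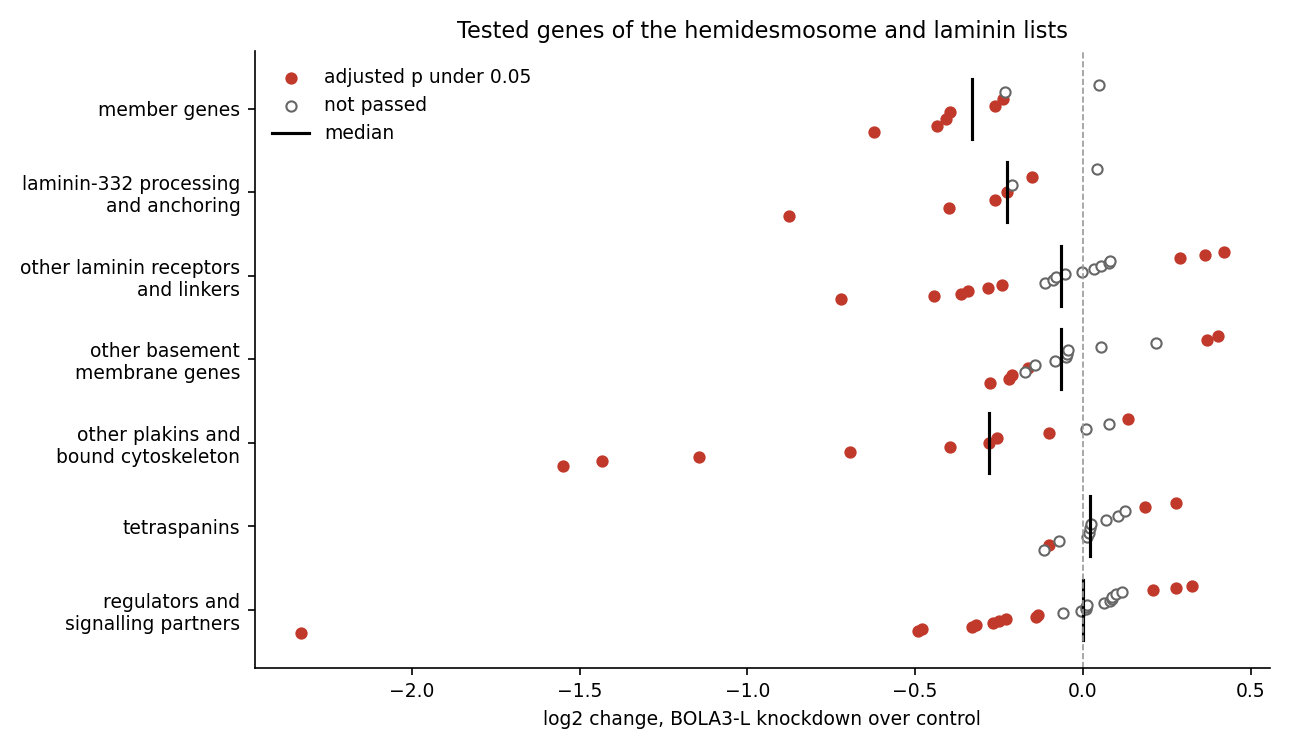
Log2 change, BOLA3-L knockdown over control, of every tested gene in the 8-gene group and in 6 related lists; filled points passed the adjusted edgeR test and vertical bars are medians. The medians of the 8 genes (-0.33), of the laminin-332 processing and anchoring genes (-0.22) and of the other plakins and filaments (-0.28) lie left of 0, and those of the tetraspanins and regulators lie at 0.02 and 0.00.

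The count table itself carries gene ontology terms, and its 2 terms for this junction were read after their genes were known. Of the 11 tested genes read under hemidesmosome assembly, the 8 genes with KRT14, KRT5 and LAMC1, 9 fell (81.8%) and 0 rose, with a median log2 change of -0.40. Among all tested genes 15.6% fell and 15.0% rose. All 11 are described above, so these falls are not a further result. The 2 that did not pass were PLEC and CD151. Of the 7 tested genes under hemidesmosome, 3 fell (42.9%) and 0 rose, and those 3, COL17A1, DST and ITGB4, belong to the 8 genes. The rest were PLEC and 3 genes named after their values were seen. ERBIN, a partner of β4 and ERBB2, stood at 272 ± 20.3 CPM after knockdown and 272 ± 6.32 CPM in controls. JUP, plakoglobin, stood at 341 ± 12.7 CPM after knockdown and 354 ± 7.83 CPM in controls, and EPPK1, epiplakin, at 24.3 ± 2.37 CPM after knockdown and 24.1 ± 0.641 CPM in controls (SD, n = 4 each). The groups overlapped in each of these 3.

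The genes with the pattern most like LAMB3 over the 8 libraries, by root mean square difference of gene-centred log2 CPM among 10133 genes at or above 5 CPM, were TGM2 (0.0422), KRT5 (0.0490), RAC2 (0.0518) and TNC (0.0540), where the median gene differed by 0.331. TGM2, the tissue transglutaminase, stood at 358 ± 20.6 CPM after knockdown and 571 ± 8.70 CPM in controls (SD, n = 4 each). Most like PLEC were ZNF512B (0.0331), TOM1 (0.0367), TNRC18 (0.0413) and COL7A1 (0.0456), where the median gene differed by 0.211. COL7A1 was, like PLEC, lowest in knockdown replicate 1, with 74.9 CPM there and 89.3 to 99.8 CPM in the other knockdown libraries, against 102 to 113 CPM in controls. These distances describe 8 libraries that share 1 experiment and carry no test.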

How the data were processed

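PolyA RNA of KYSE150 cells was extracted with TRIzol, made into libraries with the VAHTS Universal V6 kit and sequenced as paired reads, which were filtered with fastp, per the labels. The build is hg38 per the submitters' processing notes. Which aligner, counter, annotation and strand setting made the counts is not given in the sources used here. Deposited by the authors were raw counts for 15852 genes and, in a second table, FPKM values. All 110558 FPKM values above 0 match, within 1e-06, the count over its library's total and a single length per gene, so both tables hold the same measurement.

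Counts were scaled by TMM and filtered with filterByExpr, and the 11841 genes left were compared by edgeR's robust quasi-likelihood F-test, with p-values adjusted by Benjamini-Hochberg over all of them at 0.05. Standard errors of log2 changes are the size of the change over the square root of F, intervals are 95%, and values per library are TMM-scaled CPM; the marker sums are CPM of the plain totals. FPKM ratios and BOLA3 were compared with exact two-sided permutation tests over 70 assignments. Intervals and floors cover counting error and the spread between libraries only.

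The 8 genes and the lists were chosen with earlier results of these data known. The text names the 8 genes and BOLA3, from each other list up to 6 genes with the smallest p among those past the threshold, and the 4 genes most like LAMB3 (the smallest p) and PLEC (the highest CPM among those that did not pass). Others are named after their values were seen. 1 gene of these lists is not reported here. Alternatives were RLE size factors, upper quartile factors, no filter on low counts or at least 1 CPM in 4 libraries, a block for the replicate number, GC-corrected offsets (a natural spline with 5 degrees of freedom per library, for the 99.6% of tested genes with a GC value), DESeq2, limma on log2 FPKM with 1 or 0.1 added and a minimum of 0.5 FPKM or none, and each library left out. GC-corrected offsets without knockdown replicate 1, and for the list counts GC-corrected offsets, were added after seeing the data. GC content, transcripts and shared sequence (75-base windows, every 25 bases) come from GENCODE v29, coordinates and start windows from RefSeq GRCh38.p14. No 2 libraries were duplicates: the closest pair differed by a chi-square of 2.97 per degree of freedom. The fit was tested on simulated data. Tests ran in edgeR 4.0.16, DESeq2 1.42.0 and limma 3.58.1 under R 4.3.3, and in scipy 1.17.1 with pandas 2.3.3 and numpy 2.4.6 under Python 3.11.15; figures were drawn with matplotlib 3.10.9.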

Additional observations from a re-analysis of the deposited data

Results flagged for a closer look

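In 4 of the 32 groups of 4 libraries examined, 1 library lay apart from the rest by more than Dixon's 95% limit. Chance gives about 1 in 20 for independent groups. These groups were not independent, because the ratios reuse the values of single genes, and all 4 cases involve ITGA6. The count of 4 is therefore not 4 separate events. ITGA6 stood at 246 CPM in BOLA3-L knockdown replicate 1, and at 219 to 224 CPM in the other knockdown libraries. ITGA6 also stood at 310.4 CPM in control replicate 1, and at 295 to 296 CPM in the other controls. The log2 FPKM ratio of ITGA6 to ITGB4 was -0.27 in BOLA3-L knockdown replicate 1 and -0.65 to -0.59 in the other knockdown libraries. The log2 FPKM ratio of ITGA6 to ITGA3 was -0.54 in that library and -0.93 to -0.87 in the other knockdown libraries. In all 4 cases the library apart was the highest, and 3 of the 4 concern knockdown replicate 1, in which genes of low GC content such as ITGA6 were high and genes of high GC content such as ITGB4 were low.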

How the results depend on the processing

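Under the 19 alternatives, 147 of 152 log2 changes of the 8 genes kept their direction and their side of the threshold, and the 6 genes that fell did so in every one. The exceptions were PLEC and CD151. PLEC passed the test with the replicate number as a block (-0.24, edgeR adjusted p 0.00360) and with GC-corrected offsets (-0.26). It also passed without knockdown replicate 1, both with these offsets (-0.23) and without them (-0.13). Its log2 change ranged from -0.29 to -0.13 as single libraries were left out. CD151 had a log2 change of -0.0040 with GC-corrected offsets and no knockdown replicate 1, the reverse of its sign, and did not pass the test there either. As single libraries were left out, the count of the 8 genes that fell ranged from 6 to 7, that of all genes from 1419 to 2555 for falls and from 1409 to 2526 for rises.

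Some list counts moved. As single libraries were left out, rises ranged from 3 to 5 in the receptors and linkers, from 0 to 2 in the plakins and filaments, from 1 to 2 in the tetraspanins and from 2 to 5 in the regulators, and falls from 0 to 2 in the tetraspanins. With GC-corrected offsets 7 basement membrane genes and 2 tetraspanins fell and 8 regulators rose. With the block 0 tetraspanins fell and 1 rose, and with upper quartile factors 0 fell. The cause was not tested. Of 793 log2 changes of 42 of the other named genes, 753 kept their call, 40 lost it and 0 reversed.

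Same-numbered libraries did not deviate together (correlations 0.04, -0.07, 0.11 and -0.14), so the numbers were not taken as pairs. With the replicate block 3392 genes changed, 3322 of them among the 3630 without it, and among the 8 genes the block changed the call of PLEC alone.

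Leaving out 1 library gives no ratio test that can pass, since the smallest exact p is then 0.0571. Low genes such as VIM and KRT6A rest on fewer counts than the 8 genes.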
